A study of Bos grunniens x Bos taurus and Bos grunniens with 6 samples.

Results

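The sperm-egg fusion genes were chosen by name, as 10 symbols of sperm proteins that act in the merging of sperm and egg or are relatives of such proteins: IZUMO1, IZUMO2, IZUMO3, IZUMO4, SPACA6, TMEM95, SPESP1, DCST1, DCST2 and TMEM81. Of the 18918 genes in the deposited table, 9 carried one of these symbols, each symbol on a single gene, and DCST2 was not analysed here. RNA-seq libraries came from testis tissue of 3 cattle-yak (TES5, TES6 and TES7) and 3 yak (Yak8, Yak9 and Yak10), 1 library for each animal. All animals were males aged 4 years. The cattle-yak were F1 hybrids of a Jersey bull and a Gannan yak cow, and the yak were Gannan yak, kept in a different county. According to the study's methods the cattle-yak testes were removed by castration and those of yak after euthanasia, while the labels name castration for both groups, so the breed, the county and perhaps the collection cannot be told apart. The comparison asks which transcripts of the mature testis are altered in the sterile hybrid male.

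Fusion is the last step by which a sperm reaches the egg cytoplasm. After the acrosome has opened, IZUMO1 on the sperm binds its receptor JUNO on the egg, and further sperm membrane proteins are needed before the membranes merge. These proteins are made in the testis, mainly in spermatids, and are stored in the acrosomal membrane or the sperm head until fertilization. Several of them, TMEM95, SPACA6, DCST1 and DCST2 among them, are known from mice in which sperm without the protein bind eggs but do not fuse.

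The FPKM values (fragments scaled to the length of the gene model and to the depth of the library) rested on 11175100 to 11834987 fragments per library in cattle-yak and 12991641 to 13136129 in yak, as recovered from the values themselves. Markers fitted the label testis in both groups, but the germ cell stages differed. The 7 tested round spermatid markers summed to 14.2 to 59.6 FPKM in cattle-yak and 2646 to 2960 in yak, and all 7 were called lower, as were all 8 tested markers of elongating spermatids (16.8 to 80.95 FPKM against 9601 to 11802). The 10 spermatocyte markers summed to 323.8 to 564.3 FPKM in cattle-yak and 610.4 to 674.0 in yak, with 2 called lower and 1 higher. Under the median-of-ratios scaling described below, 5 were lower and 0 higher. Their log2 differences ran from −2.10 for SYCE1 to 1.10 for SYCP3, the 1 called higher, with a median of −0.46. The sums therefore do not stand for each gene of the list. By group mean they were led by SYCE2 and SYCE1 in yak, and by SYCE2 and SYCP3 in cattle-yak. The most abundant markers were GAPDHS and ACTL7B of round spermatids, with log2 differences of −6.65 and −7.00, TNP1 and PRM2 of elongating spermatids, with −8.27 and −8.03, SYCE2 and SYCE1 of spermatocytes, with −0.94 (not called) and −2.10, and DMRT1 and UCHL1 of spermatogonia, with 1.95 and 1.99. Of the spermatogonial markers 8 of 9 were called higher, and of the Sertoli markers 11 of 11. In sections from the testes, the study saw fewer spermatogonia and primary spermatocytes in cattle-yak than in yak, and neither round spermatids nor sperm. Since these are pieces of whole testis, fewer cells of a type and less RNA per cell cannot be told apart from the RNA values alone.

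Of the 9 sperm-egg fusion genes, 8 were lower in cattle-yak and 1, SPACA6, did not pass the test. A gene was called at an adjusted p under 0.05 from limma on log2 (FPKM + 1) and a log2 fold change beyond 1 in either direction. Of all 15042 genes tested, 20.8% were called lower and 33.4% higher, and no fusion gene was higher. The median log2 fold change was −4.47 over the 9 genes and 0.51 over all genes tested. Scaling by median-of-ratios (each library divided by the median ratio of its genes to their geometric mean) moved the median of all genes to 0.01 and turned the calls from 3136 lower and 5023 higher to 4176 lower and 2660 higher, while 8 fusion genes were again called lower. In the 8 genes every cattle-yak value lay below every yak value, a pattern seen in 30.2% of all genes tested. The cattle-yak mean FPKM of these 8 genes was 0.435% to 7.61% of the yak mean, with a median of 1.21%.

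**Figure D1:**
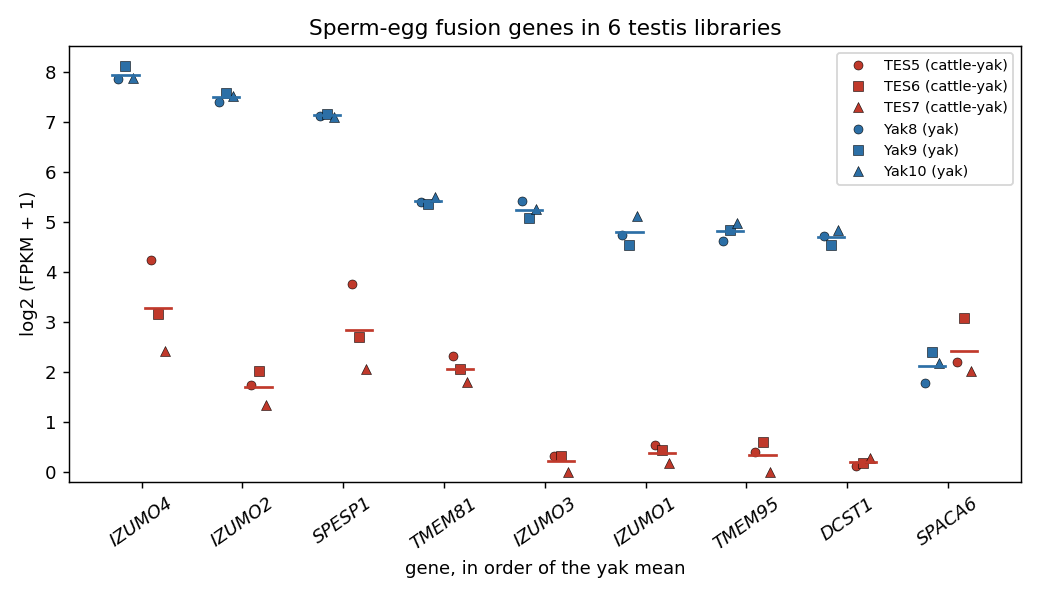
Levels of the 9 sperm-egg fusion genes as log2 (FPKM + 1), with 1 point per testis library (blue, yak; red, cattle-yak) and a bar at the group mean, ordered by the yak mean FPKM. In 8 genes the red points lie below all blue points, and in SPACA6 the groups overlap.

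IZUMO1 (ENSBGRG00000020062), the sperm protein that binds JUNO, had 25.5 FPKM in Yak8, 22.3 in Yak9 and 33.7 in Yak10. In cattle-yak it had 0.448 FPKM in TES5, 0.339 in TES6 and 0.131 in TES7. The cattle-yak values rested on 7, 5 and 2 fragments, against 443, 385 and 578 in yak, so their order among the hybrids was within counting error (95% exact Poisson interval of the 7 fragments, 2.81 to 14.4). The hybrids averaged 0.306 ± 0.161 FPKM and the yak animals 27.2 ± 5.89 (SD, n = 3 each), which leaves 1.13% of the yak level. The limma fit put the difference at −4.42 on the log2 (FPKM + 1) scale (SE 0.19, adjusted p = 3.9e-07). On this scale the fall of a gene that ends near 0 is understated, and voom on the recovered fragments gave −6.44.

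TMEM81 (ENSBGRG00000010496), a membrane protein that can form a complex with IZUMO1 and SPACA6, had 7.61% of its yak level on average, the highest mean share of the 8 lower genes. It had 3.93 FPKM in TES5, 3.12 in TES6 and 2.45 in TES7, against 41.1 in Yak8, 39.6 in Yak9 and 44.2 in Yak10. The 3 hybrids, with 36, 27 and 22 fragments, had overlapping counting intervals and lay far below the yak animals. They averaged 3.17 ± 0.741 FPKM, against 41.6 ± 2.31 (SD, n = 3 each). The limma fit put the difference at −3.37 on the log2 (FPKM + 1) scale (SE 0.15, adjusted p = 4.8e-07), which placed TMEM81 at rank 843 of the 15042 genes counted from the lowest.

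SPACA6 (ENSBGRG00000018412), an immunoglobulin-like sperm membrane protein, showed another pattern. It had 3.55 FPKM in TES5, 7.34 in TES6 and 3.04 in TES7, and 2.40 in Yak8, 4.22 in Yak9 and 3.53 in Yak10. The groups overlapped, with TES6 above the yak range and TES5 and TES7 inside it. The fragments, 44, 86 and 37 in cattle-yak and 33, 58 and 48 in yak, were far more than the hybrids had for IZUMO1. The group averages were 4.64 ± 2.35 and 3.38 ± 0.921 FPKM (SD, n = 3 each), with a log2 difference of 0.31 and a 95% interval from −0.36 to 0.99 (adjusted p = 0.34 from limma; exact permutation test, two-sided, p = 0.6). The sign rested on TES6 and on the scaling, with −0.0087 without TES6, −0.18 with median-of-ratios scaling and −1.96, past the threshold, when each library was centred on the Sertoli markers. In yak SPACA6 was also the least abundant of the 9 genes. The study prepared its libraries with a stranded kit, but how strand was counted was not given in the sources used here. Whether fragments of an overlapping gene enter these values was not tested.

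TMEM95 (ENSBGRG00000020097), a sperm membrane protein needed for fusion, had 23.5 FPKM in Yak8, 27.3 in Yak9 and 30.3 in Yak10. In cattle-yak it had 0.318 FPKM in TES5 and 0.506 in TES6, from 2 and 3 fragments, and 0 in TES7, where a count of 0 allows up to 0.487 FPKM. Floors and intervals of this kind cover counting error only. The 3 hybrids therefore could not be told apart from each other, and all lay far below yak. The averages were 0.275 ± 0.256 FPKM in the hybrids and 27.04 ± 3.40 in the yak animals (SD, n = 3 each), a share of 1.02%, with a limma log2 difference of −4.47 (SE 0.19, adjusted p = 3.8e-07).

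DCST1 (ENSBGRG00000009624), a DC-STAMP domain protein that works with DCST2 in fusion, had 25.04 FPKM in Yak8, 22.1 in Yak9 and 27.5 in Yak10. In cattle-yak it had 0.0831 FPKM in TES5, 0.132 in TES6 and 0.212 in TES7, from 2, 3 and 5 fragments. The average of 0.142 ± 0.065 FPKM was 0.572% of the 24.9 ± 2.71 in the yak animals (SD, n = 3 each), and DCST1 was the only one of the 9 genes whose highest hybrid value was in TES7, an order within counting error. The limma fit put the difference at −4.50 on the log2 (FPKM + 1) scale (SE 0.14, adjusted p = 1.3e-07), and −7.32 with voom on the recovered fragments.

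The other IZUMO genes encode relatives of IZUMO1 and were lower as well. IZUMO2 (ENSBGRG00000020020) had the largest fall of the 9 genes on the log2 (FPKM + 1) scale, from 165.96 FPKM in Yak8, 188.3 in Yak9 and 180.3 in Yak10. In cattle-yak it had 2.34 FPKM in TES5, 3.04 in TES6 and 1.52 in TES7, or 22, 27 and 14 fragments. The average of 2.30 ± 0.762 FPKM was 1.29% of the 178.2 ± 11.3 in the yak animals (SD, n = 3 each), with a limma log2 difference of −5.79 (SE 0.17, adjusted p = 9.8e-08) and rank 191 from the lowest of all genes tested. With voom on the recovered fragments the difference was −6.30, a smaller fall than in IZUMO3 (−7.72), DCST1 (−7.32), TMEM95 (−6.66) and IZUMO1 (−6.44).

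IZUMO3 (ENSBGRG00000002804), a membrane protein of the acrosome, had 0.435% of its yak level. It had 41.4 FPKM in Yak8, 32.5 in Yak9 and 36.8 in Yak10, an average of 36.9 ± 4.44, against 0.160 ± 0.139 in the hybrids (SD, n = 3 each). In TES5 and TES6 it had 2 fragments each (0.234 and 0.248 FPKM), and in TES7 none, which allows up to 0.358 FPKM. The mean share was below the 0.572% of DCST1 only through this 0: without TES7 it was 0.652%, against 0.432% for DCST1, and the counting intervals of both genes overlapped in every hybrid. The limma fit put the difference at −5.03 on the log2 (FPKM + 1) scale (SE 0.16, adjusted p = 1.2e-07), and with voom on the fragments −7.72.

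IZUMO4 (ENSBGRG00000001910), annotated in the table to the extracellular region rather than to a membrane, was the most abundant of the 9 genes in yak, with 229.3 FPKM in Yak8, 274.5 in Yak9 and 232.3 in Yak10. In cattle-yak it had 17.9 FPKM in TES5, 7.93 in TES6 and 4.30 in TES7, from 546, 229 and 129 fragments. The 95% exact Poisson intervals of the 3 hybrids, 16.4 to 19.4, 6.94 to 9.03 and 3.59 to 5.11 FPKM, did not overlap. Such intervals leave out the variation between animals. The average of 10.03 ± 7.01 FPKM was 4.09% of the 245.4 ± 25.3 in the yak animals (SD, n = 3 each), with a limma log2 difference of −4.67 (SE 0.39, adjusted p = 9.9e-06).

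SPESP1 (ENSBGRG00000021382), a protein of the equatorial segment where the sperm first merges with the egg, had the narrowest spread in yak, with 137.9 FPKM in Yak8, 141.5 in Yak9 and 135.8 in Yak10. In cattle-yak it had 12.5 FPKM in TES5, 5.41 in TES6 and 3.14 in TES7, from 511, 209 and 126 fragments. The order of the hybrids was that of IZUMO4, and their intervals of 11.4 to 13.6, 4.71 to 6.20 and 2.62 to 3.74 FPKM did not overlap either. The average of 7.02 ± 4.88 FPKM was 5.07% of the 138.4 ± 2.90 in the yak animals (SD, n = 3 each), with a limma log2 difference of −4.29 (SE 0.36, adjusted p = 1.1e-05).

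**Figure D2:**
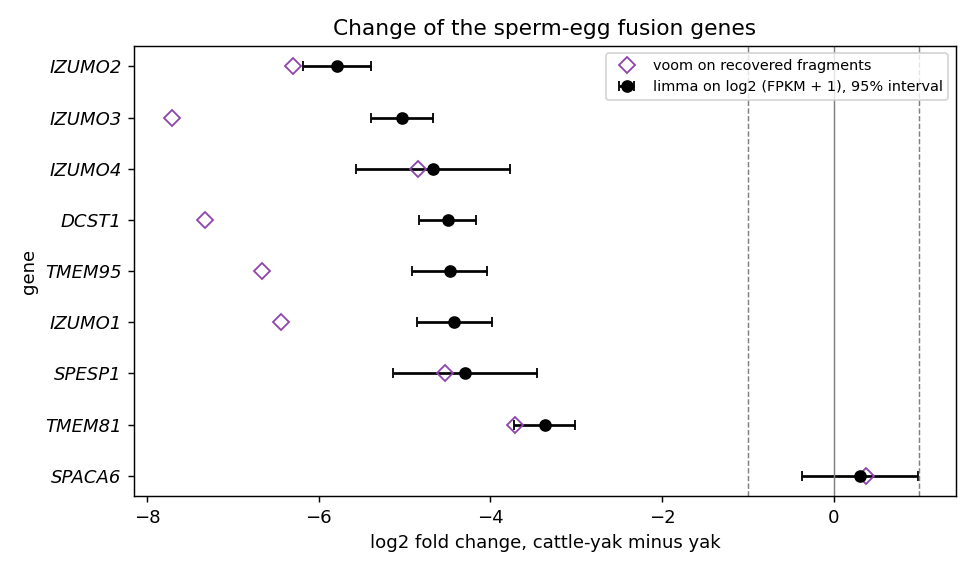
Log2 fold change of each sperm-egg fusion gene, cattle-yak minus yak, from limma on log2 (FPKM + 1) with its 95% interval (black) and from voom on recovered fragments (open diamonds), with dashed lines at the threshold of 1 in either direction. The intervals of 8 genes lie below −1 and that of SPACA6 spans 0, and the diamonds of IZUMO3, DCST1, TMEM95 and IZUMO1, which end near 0 FPKM, lie more than 2 units further left.

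The yak levels fell into 3 ranges. FPKM is per length, so levels can be compared between genes. IZUMO4, IZUMO2 and SPESP1 had means of 245.4, 178.2 and 138.4 FPKM and did not overlap with their neighbours in the order. TMEM81, IZUMO3, IZUMO1, TMEM95 and DCST1 followed with 41.6, 36.9, 27.2, 27.04 and 24.9 FPKM, and the yak values of each of these 4 neighbouring pairs overlapped. SPACA6 stood apart with 3.38 FPKM, 7.36-fold below DCST1. Between yak animals the coefficient of variation of the 8 lower genes ran from 2.10% for SPESP1 to 21.7% for IZUMO1, and that of SPACA6 was 27.2%.

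The mean share of the yak level left in the hybrids ranged over the 8 lower genes. IZUMO3, DCST1, TMEM95, IZUMO1 and IZUMO2 had 0.435% to 1.29% of the yak level, and IZUMO4, SPESP1 and TMEM81 had 4.09% to 7.61%. Several of these shares rested on 1 hybrid: without TES5, IZUMO4 had 2.49% and SPESP1 3.09%, and TMEM95 had 0.589% without TES6 and 1.52% without TES7. Among the hybrids TES5 held the highest value of 4 of the 9 genes, TES6 of 4 and TES7 of 1, DCST1, and TES7 held the lowest value of the other 8. For 6 genes (IZUMO1, IZUMO2, IZUMO3, TMEM95, DCST1 and TMEM81) the counting intervals of all pairs of hybrids overlapped, so each gene alone did not resolve the order. Whether TES7 was lower over these genes together was not tested. The round spermatid markers had a median of 1.25% of the yak mean in TES5, 0.673% in TES6 and 0.191% in TES7. The spermatocyte markers had 100.2% in TES5, 50.2% in TES6 and 80.9% in TES7. The part of the cell composition in these differences was not tested.

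**Figure D3:**
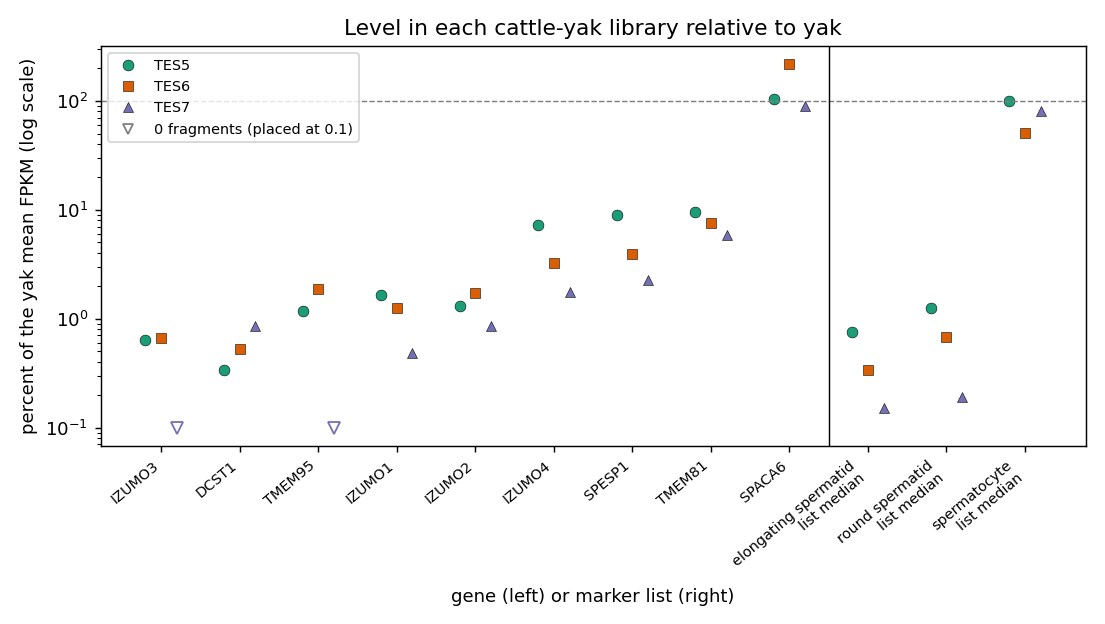
FPKM in each cattle-yak library as a percentage of the yak mean, on a log axis, for the 9 sperm-egg fusion genes (left) and as the median of 3 germ cell marker lists (right). Open triangles mark 0 fragments, the dashed line marks 100%, and 8 genes lie below 10% in every library, while the SPACA6 values, 89.996% to 217.1%, lie about the line.

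Set against the spermatocyte markers, by subtracting their mean level from each library, 8 of the 9 genes were again called lower, with SPACA6 the exception at 0.70, where 16.4% of all genes tested were lower. The differences of the 8 genes ranged from −5.40 for IZUMO2 to −2.98 for TMEM81 on the log2 scale. Set against the round spermatid markers, which fell by 6.15 on that scale, 8 of the 9 genes were called higher, but so were 98.0% of all genes, so this count says nothing about the fusion genes. IZUMO2, 0.36 above the spermatid markers, was the gene not called. For SPACA6, DCST1, TMEM95, IZUMO1, IZUMO3 and TMEM81 the yak level did not allow a fall as large as that of the markers. With the pseudocount of 1 their positive sign was therefore fixed, so this fit does not set IZUMO2 apart. With a pseudocount of 0.1 IZUMO2 was at 0.68. IZUMO1 at 0.81, TMEM95 at 0.43, DCST1 at 0.23 and IZUMO3 at −0.40 were not called there either. The number of genes called higher depended on the pseudocount and was 4 with pseudocounts of 0.1 and 0.01. In both fits the spread of the marker level enters every gene alike, so their p-values are too small and are not given. The calls counted here rest on the same p-values, so the counts and shares only describe these fits.

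Other genes of fertilization were taken from lists of their roles. Among further sperm genes of fusion and egg activation, 4 of 4 tested were called lower. Their median log2 fold change was −5.44, or −7.17 with voom. They were CRISP2, a sperm protein of the CRISP family, with 0.791% of its yak level of 1390 FPKM, PLCZ1, the sperm phospholipase that starts calcium waves in the egg, with 0.433% of 79.5 FPKM, C16ORF92, also named FIMP, with 0.511% of 36.4 FPKM, and TMEM190 with 2.07% of 29.6 FPKM. The symbol CRISP2 stands on 2 genes, and the more abundant is given. LLCFC1 and EQTN were not analysed here.

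Of the genes for binding and passing the zona pellucida, the coat of the egg, 8 of 8 tested were called lower. Their median was −4.66, and with voom on the recovered fragments −5.34, against −4.47 and −6.30 for the fusion genes. ADAM2, a sperm surface protein, had a log2 difference of −4.28, ACR, the acrosomal protease acrosin, −5.04, and SPACA1 −5.07. ZPBP and ZPBP2, acrosomal proteins that bind the zona, kept more of the yak level, with 16.5% and 18.5%, than any of the 8 lower fusion genes. This difference between genes was not tested.

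The genes that mature sperm surface proteins in the endoplasmic reticulum and after it gave 8 of 11 tested lower and 0 higher. Their median was −4.39, or −4.45 with voom. CLGN and CALR3, testis forms of the chaperones calnexin and calreticulin, had −2.48 and −3.59, and CMTM2, PRSS37 and ADAM32 had −5.53, −7.63 and −4.39. The genes not called were TEX101 (−0.88), LY6K (0.40) and PGAP1 (0.42). With median-of-ratios scaling TEX101 was past the threshold at −1.49, and LY6K and PGAP1 turned to −0.12 and −0.07. Of the somatic chaperones listed, CALR had 0.95, CANX 1.86, PDIA3 0.22, P4HB 1.26 and HSPA5 −0.06. CANX and P4HB were called higher and none of the 5 was called lower. With median-of-ratios scaling PDIA3 turned to −0.39 and P4HB, at 0.65, was no longer past the threshold.

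On the egg side, CD9 and CD81, tetraspanins of the egg surface that many other cells also carry, were called higher, with 392.5% and 489.2% of the yak level. ZP2 and ZP3, coat proteins of the egg, were not called, with log2 differences of 0.44 and −0.44, and ZP2 turned to −0.03 with median-of-ratios scaling. ASTL, the egg protease that cleaves ZP2, was listed at 0 in 5 of the 6 libraries. JUNO was not analysed here.

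**Figure D4:**
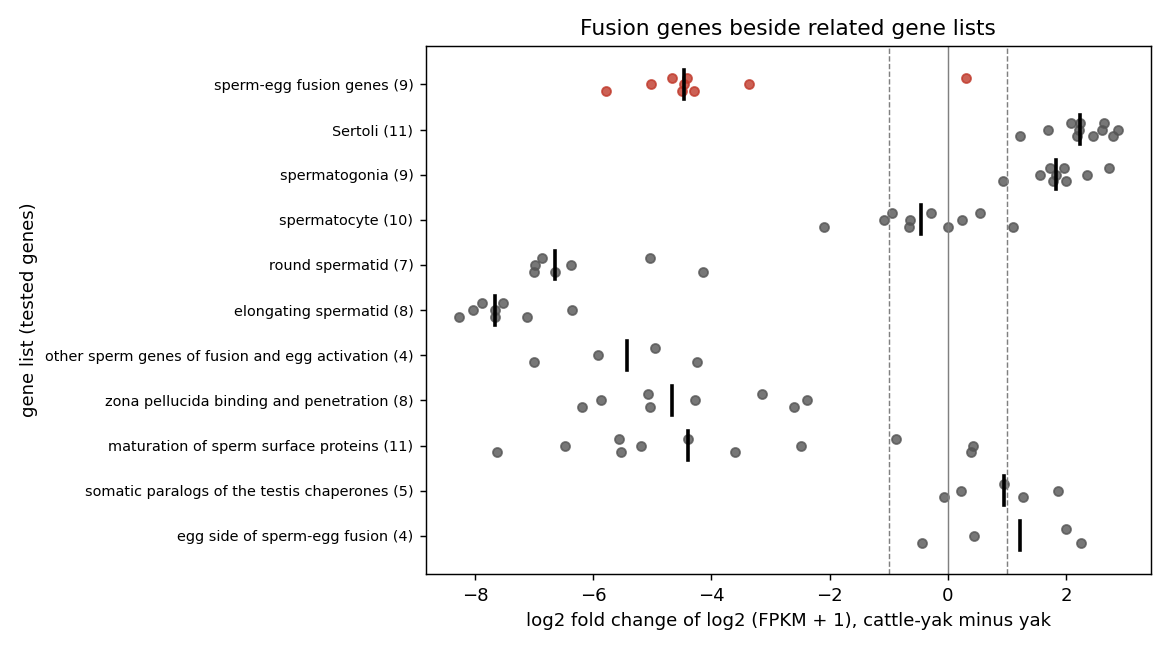
Log2 fold change, cattle-yak minus yak, of every tested gene of the sperm-egg fusion set (red) and of 10 related lists (grey), with a black bar at the median of each list, the number of tested genes in brackets and dashed lines at 1 in either direction. The fusion set has its median at −4.47, between the spermatocyte list at −0.46 and the round spermatid list at −6.65. With voom on the recovered fragments these medians were −6.30, −0.48 and −7.46, so the distances between lists depend on the scale.

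The table itself annotates 11 genes to the fusion of sperm to the egg plasma membrane, of which 3 are IZUMO1, SPACA6 and SPESP1. Of the other 8, 7 were tested, with 5 called lower and 2 higher. SPATA46 had a log2 difference of −6.50 and SPAM1, a sperm hyaluronidase that is also one of the round spermatid markers, −6.37. The other 3 carried the symbol ADAM1A, and as copies that may share fragments their values are uncertain. They had −3.54 and −2.57, and the last was at 0 in all 3 hybrids and at 1.23 FPKM on average in yak. CD9 and FOLR2, a folate receptor related to JUNO, were the 2 called higher, FOLR2 with a log2 difference of 1.30 that was 0.84, under the threshold, with median-of-ratios scaling. IZUMO2, IZUMO3, IZUMO4, TMEM95, DCST1 and TMEM81 do not carry this term in the table.

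The genes whose levels were most like those of IZUMO1, by the root mean square difference of log2 (FPKM + 1) over the 6 libraries, were CCDC81 (0.12), MGAT4E (0.13), MMEL1 (0.17), TMED6 (0.17) and SPATA21 (0.17). CCDC81 averaged 28.5 ± 7.03 FPKM in the yak animals and 0.278 ± 0.150 in the hybrids (SD, n = 3 each). These genes were found by their likeness, so their values are a description.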

How the data were processed

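Testis RNA of 3 cattle-yak and 3 yak was sequenced as paired 150 bp reads. The authors deposited FPKM values, 1 column per animal. Per the study's methods, reads were trimmed with Trimmomatic and aligned by HISAT2 against the yak genome, hybrids included, and FPKM came from Cufflinks. The library kit was stranded and the study's read counts came from HTSeq-count, but how strand was counted is not given in the sources used here. The study gives the percentage of reads mapped for each library, lower in every hybrid than in every yak. How cattle alleles mapped is not given. The values were ratios of whole fragments, from which fragments, depth and gene length were recovered for 17967 genes (98.6% of genes returned on simulated data). The 15042 genes whose FPKM averaged 0.5 or more over the libraries entered limma 3.58.1 on the log2 (FPKM + 1) scale (lmFit, eBayes with trend, two-sided, R 4.3.3), with Benjamini-Hochberg adjustment over all genes. Since the deposited values are FPKM, limma replaced the study's count test at its thresholds. When tested on simulated data, limma called 190 of 200 genes changed 4-fold and 2 unchanged genes. The changed genes were drawn from those well covered in yak, with the same spread in both groups and no shift of other genes. Changes in genes with few fragments, unequal spread and a shift of all genes were not simulated. The replicates are separate animals. Single values had exact permutation tests, whose smallest p is 0.1 for 3 animals against 3. Members and lists were chosen with earlier results of these data known, and each list gene is the most abundant with its symbol. Named were every fusion gene, up to 4 of the most abundant genes of each other pathway list and those opposite in direction, the 2 most abundant of each germ cell list, and the 5 genes nearest to IZUMO1. SYCP3, ZPBP2, CALR3, TEX101, P4HB, ASTL and the annotated fusion genes were chosen after their values were seen. Alternatives were other pseudocounts, filters, scalings, priors, the marker median, voom and leaving out each animal. No sequences or positions were used. Figures were drawn with matplotlib 3.10.9 in Python 3.11.15.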

Additional observations from a re-analysis of the deposited data

How the results depend on the processing

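The count of 8 fusion genes lower held under all pseudocounts, filters, scalings, priors, voom, no fold change threshold and the omission of each animal, except that centring on the Sertoli markers gave 9. With a mean FPKM of at least 5, SPACA6 was not tested. No fusion gene was called higher in any of these. The median log2 fold change of the fusion genes, −4.47, was −6.14 and −6.32 with pseudocounts of 0.1 and 0.01, −4.83 with median-of-ratios scaling, −4.92 with TPM, −6.75 centred on the Sertoli markers and −6.30 with voom, and −4.55 to −4.31 with each animal left out. SPACA6 turned to −0.18 with median-of-ratios scaling, −1.96 centred on the Sertoli markers and −0.0087 without TES6, in a range up to 0.51 with each animal left out. Over all genes, centring on the Sertoli markers gave 11311 lower and 28 higher, and no fold change threshold gave 7916 higher. Against the round spermatid markers, the 8 genes higher became 4 with pseudocounts of 0.1 and 0.01, and 7 to 8 with each animal left out. With these pseudocounts IZUMO3 turned to −0.40 and −1.62, and with 0.01 TMEM95 turned to −0.69 and DCST1 to −0.31. With the pseudocount of 1 used in the main fit, the yak levels of these genes did not allow a fall as large as that of the markers. In an alternative chosen after seeing the data, leaving out 1 animal moved the shares of the yak level by over 1.5 times for IZUMO4, SPESP1 and TMEM95. Against the spermatocyte markers the count of 8 lower held throughout, although these calls rest on p-values that are too small. No paired analysis was possible because the labels give the animals of the groups no shared number. Between 0 and 7 fragments stood behind each hybrid value of IZUMO1, IZUMO3, TMEM95 and DCST1, which limits the size of their fold change but not its direction.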
